A study of Mus musculus with 8 samples.

Results

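The inhibitors of cyclin-dependent kinases, the D cyclins and *Rb1* were read out in sorted cardiac fibroblasts with and without a deletion of *Lmna*, the gene of the nuclear lamina proteins lamin A and C. They are 10 genes of the 18957 in the deposited count tables, taken by symbol as regulators of the G1 phase and of senescence. They comprise the CIP/KIP inhibitors *Cdkn1a*, *Cdkn1b* and *Cdkn1c*, the INK4 inhibitors *Cdkn2a*, *Cdkn2b* and *Cdkn2c*, the D cyclins *Ccnd1*, *Ccnd2* and *Ccnd3*, and *Rb1*. RNA was available from 4 *Pdgfra-Cre:LmnaF/F* mice, in which a *Pdgfra-Cre* transgene recombines 2 *Lmna* alleles floxed around exon 2, and from 4 WT littermates, all labelled C57BL/6 (mixed) and 3 to 4 weeks old. Each library is 1 mouse. The WT mice carry no Cre, so deletion of *Lmna* and presence of Cre cannot be told apart, and mice with Cre alone were not analysed here. The cells were gated as PDGFRA-positive and negative for hematopoietic lineage markers, PDGFRA is not exclusive to fibroblasts, and the same Cre acts in a fraction of cardiac myocytes.

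A cell leaves G1 when D cyclins activate their partner kinases CDK4 and CDK6, which phosphorylate the retinoblastoma protein encoded by *Rb1* and so release the E2F transcription factors. INK4 proteins bind the kinases and keep D cyclins away, while CIP/KIP proteins bind assembled complexes of cyclin and kinase, above all those of CDK2. *Cdkn1a* is the textbook target of p53 in DNA damage, *Cdkn2a* the textbook marker of senescence, and the genotype comparison asks whether transcripts of these brakes and accelerators differ in fibroblasts of mice with deletion of *Lmna*.

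The DNA upstream of *Cdkn1a* is shown because *Cdkn1a* is set beside other p53 targets below, and that upstream of *Cdkn2a* because the counts of this gene cover 2 transcripts with separate starts and different proteins. The sequences are the 250 bases before annotated starts in RefSeq on GRCm38.p6, the assembly also called mm10, each written 5′ to 3′ on the strand of the gene. Of the 10 genes, 6 had such windows. The first lies before the upstream start of *Cdkn1a*, chr17:29090729-29090978 on the plus strand, and its capitals mark a match to the p53 full site, made of 2 decamers with no spacer and with 1 mismatch allowed. The others lie before the starts of *Cdkn2a* on the minus strand, one that leads to the p19Arf transcript (chr4:89294620-89294869) and one that leads to the p16Ink4a transcript (chr4:89282193-89282442), and capitals mark a match to an E2F motif.

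Cdkn1a, upstream start: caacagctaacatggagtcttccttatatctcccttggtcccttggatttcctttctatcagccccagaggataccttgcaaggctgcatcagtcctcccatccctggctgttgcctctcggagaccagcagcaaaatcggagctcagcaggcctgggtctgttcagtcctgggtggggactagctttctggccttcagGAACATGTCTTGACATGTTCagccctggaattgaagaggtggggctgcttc

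Cdkn2a, p19Arf start: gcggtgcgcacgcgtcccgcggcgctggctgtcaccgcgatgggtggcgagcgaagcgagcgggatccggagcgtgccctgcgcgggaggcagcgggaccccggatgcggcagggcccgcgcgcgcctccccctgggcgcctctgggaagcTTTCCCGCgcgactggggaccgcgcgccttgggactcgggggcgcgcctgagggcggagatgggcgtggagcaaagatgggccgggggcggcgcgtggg

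Cdkn2a, p16Ink4a start: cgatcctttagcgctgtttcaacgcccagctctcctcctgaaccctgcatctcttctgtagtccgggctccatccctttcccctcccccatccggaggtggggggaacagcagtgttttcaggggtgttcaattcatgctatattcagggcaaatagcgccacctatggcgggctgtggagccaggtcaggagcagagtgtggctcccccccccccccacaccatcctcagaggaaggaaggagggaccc

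The p53 match of *Cdkn1a* occurred in 25 of 32851 windows of the same length (0.0761%), on either strand. The window before the downstream start of *Cdkn1a* (chr17:29093519-29093768), which is not shown, held no such match. E2F motifs, searched as TTTCCCGC, TTTCGCGC or TTTGGCGC on both strands, were found in 504 windows (1.53%), and the p19Arf window is one of them. The p19Arf window held 40 CpG dinucleotides and the p16Ink4a window 7, against a median of 6 over all windows. These are matches of letters and no binding was measured in this experiment.

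Expression is given as CPM, counts scaled to a common library size with TMM factors, and a log2 fold change is *Pdgfra-Cre:LmnaF/F* over WT. The quasi-likelihood test of edgeR compared the groups over the 13036 genes that passed a filter on low counts, with Benjamini-Hochberg adjustment over all of them, and a gene was called at an adjusted p under 0.05. Totals ranged from 2080555 to 10741519 counts in WT, the lowest in replicate 2, and from 8284882 to 12502949 in *Pdgfra-Cre:LmnaF/F*. *Lmna* itself fell by 1.72 on the log2 scale (adjusted p = 0.00492), from a mean of 365 to 111 CPM, with every *Pdgfra-Cre:LmnaF/F* library below every WT library. Summed fibroblast markers, 8 genes including *Pdgfra* and *Col1a1*, lay between 48869 and 56433 CPM in WT and between 42217 and 58684 CPM in *Pdgfra-Cre:LmnaF/F*. Of the 8 libraries, 2 stood apart. WT replicate 2 had the lowest depth and 636 CPM of 28 proliferation markers against 60.4 to 251 CPM in the other WT libraries, and *Pdgfra-Cre:LmnaF/F* replicate 4 had 5827 CPM of 8 cardiomyocyte markers against 329 to 913 CPM in its group. In bulk RNA, fewer cells of a type and less RNA per cell cannot be told apart.

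None of the CDK inhibitors, D cyclins or *Rb1* was called, either higher or lower. Of the 10 genes, 8 passed the filter and were tested, and 0 of the 8 had an adjusted p under 0.05, beside 53 of all 13036 genes (0.407%, of which 0.169% higher and 0.238% lower). Counts were also simulated with the depths and the variability of these libraries. There the test called 11.4% of 2-fold and 68.6% of 4-fold changes. A change of this size can thus be missed, and 0 called does not show equal expression. Of all genes, 2.26% were called with DESeq2, 0.967% with limma-voom, 1.45% with no filter on low counts, 0.959% with edgeR and 1 factor of unwanted variation estimated from residuals (RUVr), and 3.91% with DESeq2 and this factor, which are the shares beside the counts given below for these fits. At an unadjusted p under 0.05 there were 2, *Cdkn1c* with higher and *Ccnd1* with lower counts in *Pdgfra-Cre:LmnaF/F*, beside 11.9% of all genes. The groups did not overlap for 1 of the 8, *Cdkn1c*, beside 8.03% of all genes (4.06% with *Pdgfra-Cre:LmnaF/F* above and 3.97% below). The log2 fold change was above 0 for 3 and below 0 for 5, beside 51.8% of all genes above 0, and the median was -0.14 against 0.02 over all genes.

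**Figure D1:**
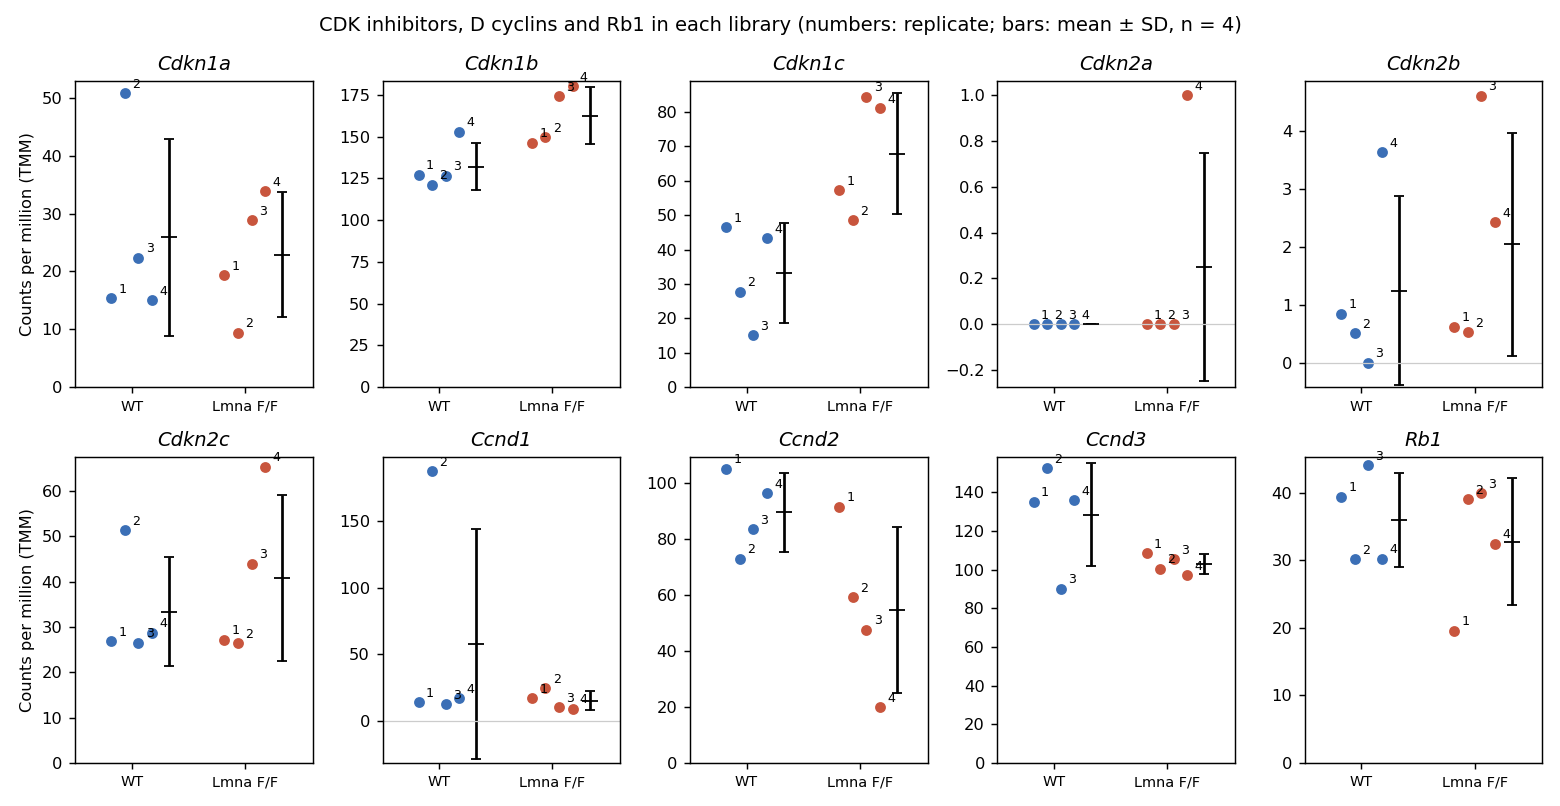
CPM (TMM-scaled counts) of the 10 genes in each of 4 WT (blue) and 4 *Pdgfra-Cre:LmnaF/F* (red) libraries, with replicate numbers beside the points and mean ± SD to their right. The 4 red points of Cdkn1c (48.6 to 84.4 CPM) lie above the 4 blue points (15.0 to 46.5 CPM), and single libraries set the spread of Ccnd1 (188 CPM in WT replicate 2) and of Cdkn2a (1.0 CPM in *Pdgfra-Cre:LmnaF/F* replicate 4).

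Among the CIP/KIP inhibitors, *Cdkn1c* had the lowest p. It encodes p57, an imprinted inhibitor expressed from the maternal allele, and lies on chromosome 7 (143458339 to 143461050, minus strand). *Cdkn1c* was at 46.5, 27.7, 15.0 and 43.3 CPM in WT replicates 1 to 4. It was at 57.2, 48.6, 84.4 and 81.1 CPM in *Pdgfra-Cre:LmnaF/F* replicates 1 to 4. All 4 *Pdgfra-Cre:LmnaF/F* libraries lay above all 4 WT libraries, the narrowest gap being between *Pdgfra-Cre:LmnaF/F* replicate 2 and WT replicate 1. The means were 33.1 ± 14.6 and 67.8 ± 17.6 CPM (SD, n = 4 each), a 2.03-fold difference with a log2 fold change of 1.02 (SE 0.33, 95% interval 0.32 to 1.72), and the gene ranked at 443 of 13036 by p. It did not pass the test (edgeR, adjusted p = 0.209). With DESeq2 and 1 RUVr factor, a combination of the kind the study used, it did pass (adjusted p = 0.0165), and over the 9 alternative fits to all 8 libraries the adjusted p ranged from 0.0165 to 0.260. Without WT replicate 2 and *Pdgfra-Cre:LmnaF/F* replicate 4 together, the log2 fold change was 0.85 (adjusted p = 0.519).

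Genes of the response to tissue dissociation, which cells switch on during enzymatic digestion, were summed in the same libraries. Their sum over 32 genes was 6929, 5585, 8301 and 6174 CPM in WT and 10369, 11889, 14964 and 10472 CPM in *Pdgfra-Cre:LmnaF/F*, so here too the groups did not overlap. Of the 31 tested, 25 had a log2 fold change above 0, beside 51.8% of all genes. In edgeR 2 rose past the threshold, beside 0.169% of all genes, *Ier3* (log2 fold change 1.88, adjusted p = 0.0221) and *Nr4a1* (1.92, adjusted p = 0.0471), both immediate early genes. *Socs3*, a feedback inhibitor of cytokine signalling, had 1.48 (adjusted p = 0.0627). The list had 0 called without WT replicate 1, WT replicate 4 or *Pdgfra-Cre:LmnaF/F* replicate 3, 1 without WT replicate 2 or *Pdgfra-Cre:LmnaF/F* replicate 2, 5 without *Pdgfra-Cre:LmnaF/F* replicate 4 and 6 without WT replicate 3. With all libraries, 12 were called with DESeq2 or with no filter, and 10 with limma-voom or 1 RUVr factor. Over all genes, 24, 24, 49 and 13 were called without WT replicates 1 to 4. Without *Pdgfra-Cre:LmnaF/F* replicates 1 to 4 there were 52, 26, 17 and 76, of 13447 to 13673 genes tested. The part of this response in the *Cdkn1c* difference was not tested.

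*Cdkn1b* encodes p27, the inhibitor associated with quiescence, and lies on chromosome 6 (134920401 to 134925513, plus strand). It was at 127, 121, 127 and 153 CPM in WT and at 146, 150, 174 and 180 CPM in *Pdgfra-Cre:LmnaF/F* replicates 1 to 4. WT replicate 4 lay above *Pdgfra-Cre:LmnaF/F* replicates 1 and 2, so the groups overlapped. The means were 132 ± 14.2 and 163 ± 17.0 CPM (SD, n = 4 each), with a log2 fold change of 0.30 (SE 0.18, 95% interval -0.09 to 0.69), and the difference did not pass the test (edgeR, adjusted p = 0.567). The fold change kept a narrow range, 0.24 to 0.38, over the 8 fits with 1 library left out.

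*Cdkn1a*, which encodes p21, lies on chromosome 17 (29090976 to 29100727, plus strand). It was at 15.3, 50.8, 22.4 and 15.0 CPM in WT replicates 1 to 4 and at 19.3, 9.38, 28.9 and 33.8 CPM in *Pdgfra-Cre:LmnaF/F* replicates 1 to 4. The highest value of all was in a WT library, replicate 2, and the lowest in a *Pdgfra-Cre:LmnaF/F* library, replicate 2. The means were 25.9 ± 17.0 and 22.9 ± 10.8 CPM (SD, n = 4 each), with a log2 fold change of -0.14 (SE 0.45, 95% interval -1.11 to 0.83). The difference did not pass the test (edgeR, adjusted p = 0.947), and the interval covers differences of either sign. The sign turned without WT replicate 2 (0.38), without *Pdgfra-Cre:LmnaF/F* replicate 2 (0.12) and in limma-voom with quality weights (0.22).

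**Figure D2:**
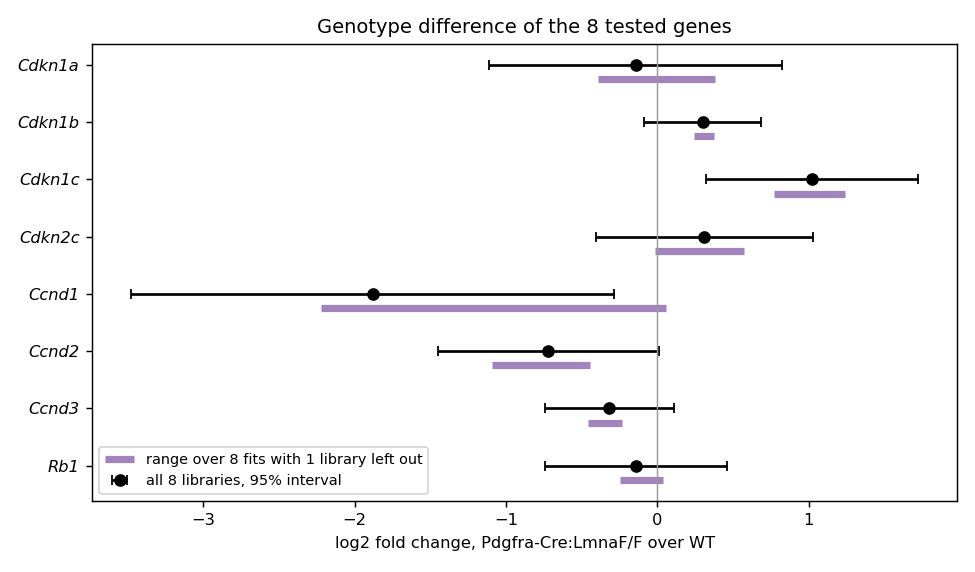
Log2 fold change of *Pdgfra-Cre:LmnaF/F* over WT for the 8 tested genes, as the estimate from all 8 libraries with its 95% interval (black) and the range over 8 fits with 1 library left out (purple). The interval lies above 0 for Cdkn1c (0.32 to 1.72) and below 0 for Ccnd1 (-3.47 to -0.28), and the purple range of Ccnd1 (-2.22 to 0.056) reaches across 0.

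Of the INK4 inhibitors, *Cdkn2c* was the only one with enough counts to be tested. *Cdkn2a*, the gene of p16Ink4a and p19Arf, lies on chromosome 4 (89274471 to 89294653, minus strand). It had 0 counts in all 4 WT libraries and in *Pdgfra-Cre:LmnaF/F* replicates 1, 2 and 3, and 12 counts (1.0 CPM) in *Pdgfra-Cre:LmnaF/F* replicate 4. A count of 0 allows up to 3 counts. This limit is 0.28, 1.51, 0.48 and 0.31 CPM in WT replicates 1 to 4 and 0.31 to 0.35 CPM in *Pdgfra-Cre:LmnaF/F* replicates 1 to 3. The level of *Pdgfra-Cre:LmnaF/F* replicate 4 is under the limit of WT replicate 2 and above those of all other libraries with a count of 0. *Pdgfra-Cre:LmnaF/F* replicate 4 also held 453 CPM of 8 immune markers against 51.6 to 109 CPM in its group, beside the cardiomyocyte markers given above, and the part of these cells in its *Cdkn2a* counts was not tested. The counts cover both transcripts, which cannot be separated in counts per gene. Such floors cover counting error only.

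*Cdkn2b* encodes p15, lies next to *Cdkn2a* on chromosome 4 (89306299 to 89311039, minus strand) and did not pass the filter. Its counts were 9, 1, 0 and 35 in WT and 6, 5, 40 and 29 in *Pdgfra-Cre:LmnaF/F* replicates 1 to 4. In CPM the highest value was 3.62 in WT and 4.60 in *Pdgfra-Cre:LmnaF/F*, and both groups had libraries under 1 CPM.

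*Cdkn2c* encodes p18 and lies farther along chromosome 4 (109660876 to 109667189, minus strand). It was at 26.8, 51.3, 26.5 and 28.8 CPM in WT and at 27.2, 26.4, 44.0 and 65.4 CPM in *Pdgfra-Cre:LmnaF/F* replicates 1 to 4. In each genotype at least 1 library stood well above a group of values near 27 CPM, namely WT replicate 2 and *Pdgfra-Cre:LmnaF/F* replicates 3 and 4. The log2 fold change was 0.31 (SE 0.33, 95% interval -0.41 to 1.02) and did not pass the test (edgeR, adjusted p = 0.804). It was -0.018 without *Pdgfra-Cre:LmnaF/F* replicate 4.

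The D cyclins had lower mean CPM in *Pdgfra-Cre:LmnaF/F* for each of the 3 genes, and none passed the test. *Ccnd2*, on chromosome 6 (127125162 to 127152193, minus strand), was at 105, 73.0, 83.6 and 96.3 CPM in WT replicates 1 to 4. It was at 91.5, 59.1, 47.5 and 19.8 CPM in *Pdgfra-Cre:LmnaF/F* replicates 1 to 4. Of the *Pdgfra-Cre:LmnaF/F* libraries 3 lay below every WT library, and replicate 1 lay within the WT range. The means were 89.5 ± 14.1 and 54.5 ± 29.7 CPM (SD, n = 4 each), with a log2 fold change of -0.72 (SE 0.34, 95% interval -1.45 to 0.01, edgeR adjusted p = 0.427). The lowest library, *Pdgfra-Cre:LmnaF/F* replicate 4, is the one with the cardiomyocyte markers, and without it the log2 fold change was -0.44 (adjusted p = 0.562). Without *Pdgfra-Cre:LmnaF/F* replicate 1 it was -1.10 (adjusted p = 0.158).

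*Ccnd1*, on chromosome 7 (144929931 to 144939925, minus strand), is the D cyclin induced by mitogens. It was at 14.1, 188, 12.5 and 17.1 CPM in WT and at 17.1, 24.4, 10.4 and 8.92 CPM in *Pdgfra-Cre:LmnaF/F* replicates 1 to 4. WT replicate 2 lay far above the rest, and the other 7 libraries overlapped between the genotypes. The log2 fold change was -1.88 (SE 0.75, 95% interval -3.47 to -0.28, edgeR adjusted p = 0.332) with all libraries and 0.056 (adjusted p = 0.990) without WT replicate 2. With no filter on low counts *Ccnd1* was called lower (adjusted p = 0.0270), and with the quality weights of limma-voom the log2 fold change was -0.61 (adjusted p = 0.767). The part of the depth and of the proliferation markers of WT replicate 2 in this value was not tested.

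*Ccnd3*, on chromosome 17 (47505051 to 47599691, plus strand), was at 135, 152, 90.1 and 136 CPM in WT and at 109, 101, 105 and 97.1 CPM in *Pdgfra-Cre:LmnaF/F* replicates 1 to 4. The *Pdgfra-Cre:LmnaF/F* libraries lay close together and between WT replicate 3 and the other WT libraries. The log2 fold change was -0.32 (SE 0.20, 95% interval -0.74 to 0.11, edgeR adjusted p = 0.585).

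*Rb1*, the target of the kinases that D cyclins activate, lies on chromosome 14 (73183673 to 73325822, minus strand). It was at 39.4, 30.2, 44.1 and 30.2 CPM in WT and at 19.6, 39.0, 39.9 and 32.4 CPM in *Pdgfra-Cre:LmnaF/F* replicates 1 to 4. The groups overlapped, with the lowest value in *Pdgfra-Cre:LmnaF/F* replicate 1. The log2 fold change was -0.14 (SE 0.28, 95% interval -0.74 to 0.46, edgeR adjusted p = 0.904), and 0.036 without that library. Exons of *Cdkn1a*, *Cdkn1c*, the 3 D cyclins and *Rb1* overlap those of genes on the opposite strand (*Bysl* for *Ccnd3* and *Lpar6* for *Rb1*, for example). The libraries were strand-specific, but whether strand was used in counting is not stated in the sources used here, so reads of these partners may be included.

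**Figure D3:**
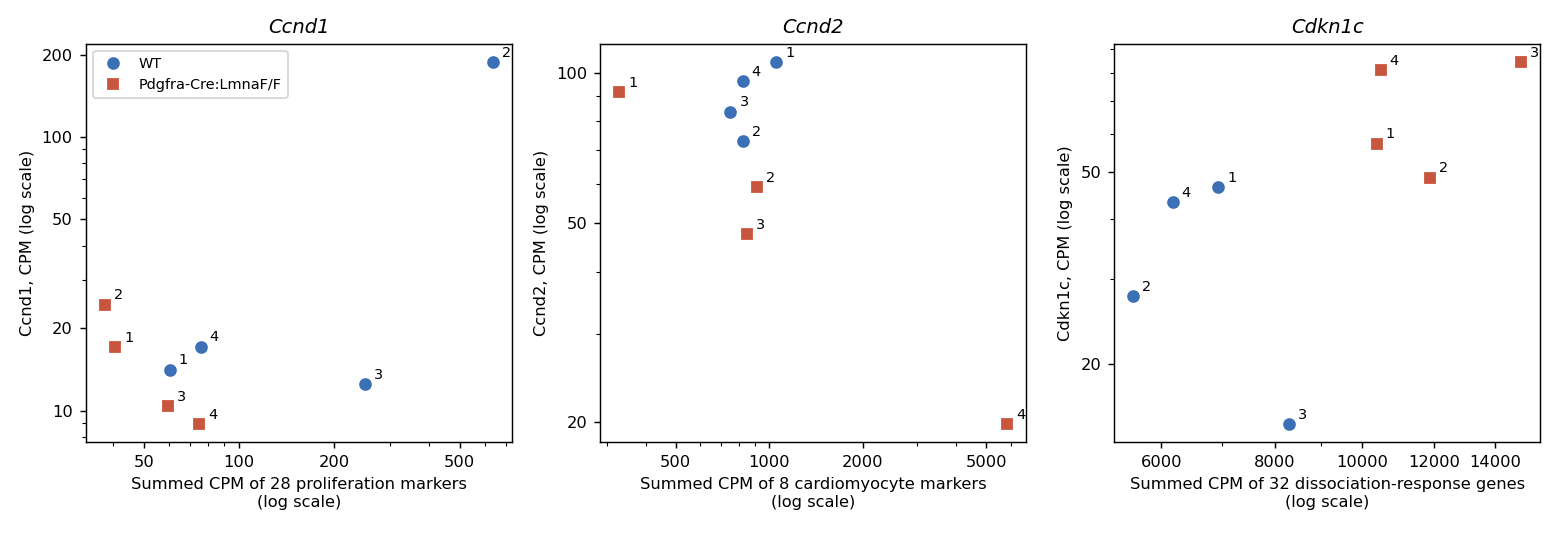
Each point is 1 library (blue circles WT, red squares *Pdgfra-Cre:LmnaF/F*, with replicate numbers) and both axes are CPM on a log scale, with Ccnd1 against 28 proliferation markers, Ccnd2 against 8 cardiomyocyte markers and Cdkn1c against 32 dissociation-response genes. WT replicate 2 (188 CPM of Ccnd1, 636 CPM of proliferation markers) and *Pdgfra-Cre:LmnaF/F* replicate 4 (19.8 CPM of Ccnd2, 5827 CPM of cardiomyocyte markers) lie apart from the other points.

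Levels between genes were compared per kilobase of annotated exon. *Cdkn1b* was the most abundant of the 10 with a median of 32.5 CPM per kilobase over the 8 libraries, followed by *Cdkn1c* at 23.3, *Ccnd3* at 12.2, *Cdkn2c* at 10.4, *Ccnd2* at 8.32, *Rb1* at 5.94, *Cdkn1a* at 5.87, *Ccnd1* at 3.31 and *Cdkn2b* at 0.526, with *Cdkn2a* at a median of 0. *Cdkn1b* exceeded *Cdkn1c* in 6 of 8 libraries and *Rb1* exceeded *Cdkn1a* in 4 of 8, so neighbours in this order were often not separated beyond the spread of the libraries. With the length of the longest transcript in place of all exons, *Ccnd3* was at 27.7 CPM per kilobase and came before *Cdkn1c*, *Ccnd2* was at 12.4 and came before *Cdkn2c*, and *Cdkn1a* was at 10.03 and came before *Rb1*, which was at 7.67. With the length of all exons, *Cdkn1c* had a mean of 16.2 ± 7.17 CPM per kilobase in WT and 33.3 ± 8.65 in *Pdgfra-Cre:LmnaF/F* (SD, n = 4 each), second to *Cdkn1b* by mean in both genotypes on this length. Its place among the 10 was 2, 6, 5 and 2 in WT replicates 1 to 4 and 2, 2, 1 and 1 in *Pdgfra-Cre:LmnaF/F*. *Cdkn1a* had means of 7.28 ± 4.78 and 6.44 ± 3.04 CPM per kilobase, and its place among the 10 ranged from 5 to 7 in WT libraries and from 5 to 8 in *Pdgfra-Cre:LmnaF/F* libraries.

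Summed per kilobase, the CIP/KIP inhibitors were at 55.1, 54.5, 41.5 and 59.0 CPM in WT and at 65.6, 59.4, 87.8 and 88.9 CPM in *Pdgfra-Cre:LmnaF/F* replicates 1 to 4. The D cyclins were at 29.6, 65.0, 21.8 and 29.3 CPM per kilobase in WT and at 25.7, 22.9, 19.2 and 15.1 in *Pdgfra-Cre:LmnaF/F*. The ratio of the former sum to the latter was 1.86, 0.839, 1.90 and 2.01 in WT and 2.55, 2.59, 4.56 and 5.90 in *Pdgfra-Cre:LmnaF/F*. It did not overlap between the genotypes, also with the length of the longest transcript (0.648 to 1.16 in WT and 1.502 to 3.21 in *Pdgfra-Cre:LmnaF/F*) and with no division by length (0.484 to 0.881 and 1.03 to 2.35). Other combinations overlapped between the genotypes. The INK4 sum was at 9.87 to 19.5 CPM per kilobase in WT and 10.2 to 26.9 in *Pdgfra-Cre:LmnaF/F*. The ratio of *Cdkn1b* to *Ccnd2* was 2.50 to 3.44 and 3.30 to 18.8. Sums and ratios are descriptions of these 8 libraries, for genes chosen with earlier results known. They were not tested, and no share over all genes was computed for them. Within the CIP/KIP sum, *Cdkn1c* made up 41.4%, 24.9%, 17.8% and 36.0% in WT and 40.1% to 47.2% in *Pdgfra-Cre:LmnaF/F*, and *Ccnd1* made up 61.3% of the D cyclins in WT replicate 2 but 10.1% to 22.6% in the other 7 libraries.

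**Figure D4:**
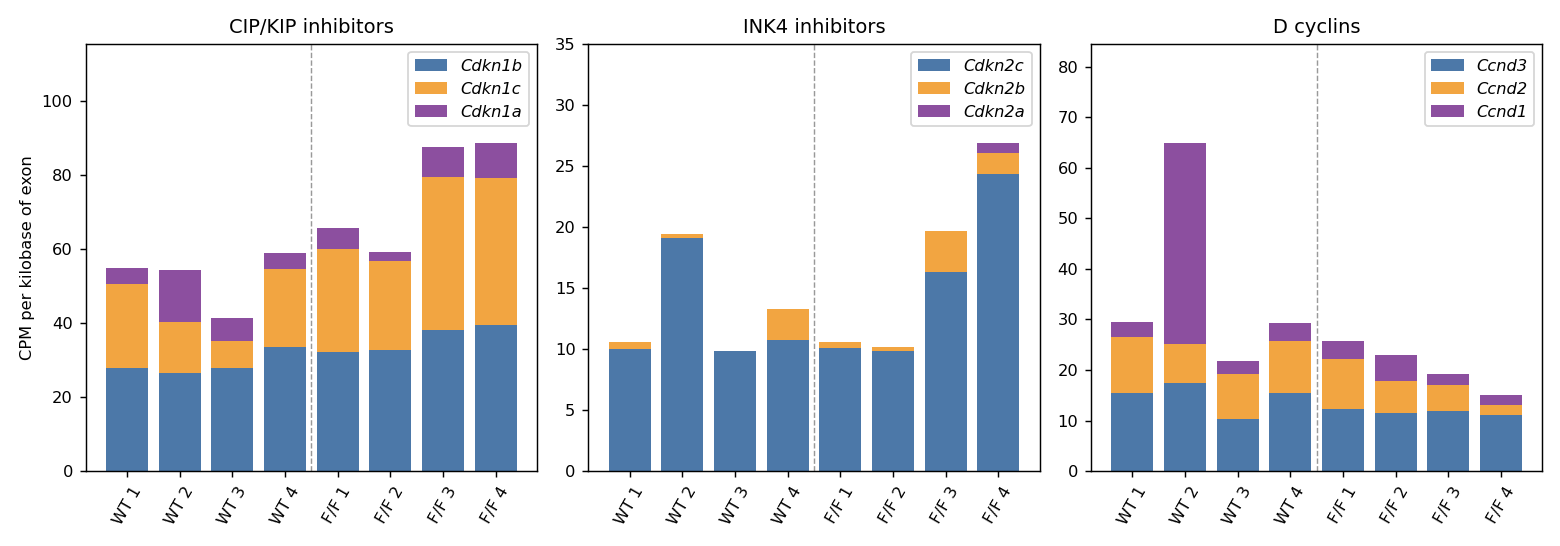
Stacked CPM per kilobase of exon of the CIP/KIP inhibitors, the INK4 inhibitors and the D cyclins in each library (WT 1 to 4, then *Pdgfra-Cre:LmnaF/F* 1 to 4, written F/F). The CIP/KIP bars reach 41.5 to 59.0 in WT and 59.4 to 88.9 in *Pdgfra-Cre:LmnaF/F*, and Ccnd1 forms most of the D-cyclin bar of WT replicate 2 alone.

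The genes that act with these regulators were counted in the same way. Of 32 tested partners in the G1/S transition (kinases, E cyclins, E2F and DP factors, pocket proteins and subunits of the DREAM complex) 0 were called (2 with DESeq2), 3 had an unadjusted p under 0.05 and the median log2 fold change was -0.01, beside 0.407% called and 11.9% at an unadjusted p under 0.05 of all genes. The kinases that the INK4 proteins bind had log2 fold changes of 0.08 for *Cdk4* and 0.06 for *Cdk6*, both named after their values were seen. The lowest p-values belonged to *Lin52*, a DREAM subunit (log2 fold change 1.70, adjusted p = 0.132), *Tfdp2*, a dimerization partner of E2F (0.92, adjusted p = 0.134), and *E2f4*, a repressive E2F (-0.88, adjusted p = 0.264). For each of these 3 genes the groups did not overlap, and none passed the test. In the whole list the *Pdgfra-Cre:LmnaF/F* libraries lay above all WT libraries for 3 genes and below for 2. The shares of all genes were 4.06% and 3.97%.

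E2F target genes, which respond to release from RB1, were balanced around 0. Of 34 tested, 16 had a log2 fold change above 0 and 18 below 0, beside 51.8% of all genes above 0, with a median of -0.04. With edgeR 0 were called, beside 0.407% of all genes, and 2 had an unadjusted p under 0.05, beside 11.9%. With DESeq2 0 were called, beside 2.26% of all genes. The lowest p-values were those of *Pcna*, the sliding clamp of DNA replication (0.66, adjusted p = 0.303), *Slbp*, which binds histone mRNA (0.70, adjusted p = 0.336), and *Mcm2*, a subunit of the replicative helicase (-1.36, adjusted p = 0.464).

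Of the proliferation markers of later phases, 23 were tested and 21 had a log2 fold change below 0, with a median of -1.95. By edgeR 0 were called and 10 had an unadjusted p under 0.05, beside 11.9% of all genes, and DESeq2 called 7, beside 2.26% of all genes. The unadjusted count was 3 without WT replicate 2, 2 with limma-voom, and 1 of 18 tested without both libraries that stood apart. *Mki67*, the proliferation antigen, was at 9.44, 80.5, 15.2 and 3.62 CPM in WT and at 2.07, 0.104, 3.34 and 1.5 CPM in *Pdgfra-Cre:LmnaF/F* (log2 fold change -3.92, adjusted p = 0.103). *Ect2* and *Prc1*, both required for cytokinesis, had -4.07 (adjusted p = 0.193) and -3.97 (adjusted p = 0.194). The highest WT library was replicate 2 in each of the 3 genes.

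Of the 30 tested targets of p53 other than *Cdkn1a*, 2 rose, beside 0.169% of all genes. *Btg2*, an antiproliferative gene also known as immediate early, was at 343, 110, 511 and 268 CPM in WT and at 1011, 1046, 1887 and 1261 CPM in *Pdgfra-Cre:LmnaF/F* (log2 fold change 2.08, adjusted p = 0.0315). *Sertad1*, whose product binds CDK4, was at 31.4, 26.7, 23.2 and 28.6 CPM in WT and at 63.7, 116, 138 and 63.3 CPM in *Pdgfra-Cre:LmnaF/F* (1.79, adjusted p = 0.0185). Neither gene overlapped between the genotypes. *Ppm1d*, the p53-induced phosphatase, had 0.98 (adjusted p = 0.259). The log2 fold change was above 0 for 21 of the 30, beside 51.8% of all genes, with a median of 0.19. The summed dissociation response given above did not overlap between the genotypes either, and its part in these values was not tested. Leaving out 1 library left between 0 and 2 of the p53 targets called, with 0 called without WT replicate 4 and without *Pdgfra-Cre:LmnaF/F* replicate 3 and 1 without WT replicate 1 and without *Pdgfra-Cre:LmnaF/F* replicate 2. The counts over all genes in these fits are given above with the dissociation response.

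Regulators of p53 and of the INK4 locus had 1 call in 22 tested genes, beside 0.407% of all genes (0.169% higher). An unadjusted p under 0.05 was found for 4 of the 22, beside 11.9% of all genes. *Id1*, a helix-loop-helix protein known to restrain *Cdkn2a*, rose, with 26.2 to 34.7 CPM in WT and 57.9 to 128 CPM in *Pdgfra-Cre:LmnaF/F* (log2 fold change 1.39, adjusted p = 0.0368). *Id3*, of the same family, had 1.47 (adjusted p = 0.0568), and *Npm1*, a nucleolar protein that binds p19Arf, had 0.60 (adjusted p = 0.242). The list had 0 called without any 1 of WT replicates 1, 2 and 4 and *Pdgfra-Cre:LmnaF/F* replicates 2 and 3, and also without both libraries that stood apart. It had 2 called without *Pdgfra-Cre:LmnaF/F* replicate 4 and with DESeq2, limma-voom, no filter, at least 10 counts in every library, 1 RUVr factor, and DESeq2 with RUVr. Over all genes, 58 of 9905 were called with at least 10 counts in every library. Without both libraries that stood apart, 37 of 13067 were called. The counts over all genes without 1 library are given above with the dissociation response.

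Imprinted growth genes, of which *Cdkn1c* is one, had 0 called of 14 tested (1 with DESeq2), 3 with an unadjusted p under 0.05 and a median of -0.02. The shares of all genes were 0.407% called and 11.9% at an unadjusted p under 0.05. *Mest* and *Peg10*, expressed from the paternal allele, had 0.77 (adjusted p = 0.216) and 1.33 (adjusted p = 0.276), and *Cd81*, a tetraspanin gene of the same chromosomal cluster as *Cdkn1c*, had -0.63 (adjusted p = 0.209). Senescence and secretory markers had 0 called of 30 tested by edgeR, beside 0.407% of all genes, and a median of 0.29. An unadjusted p under 0.05 was found for 16, of which 12 were higher and 4 lower, beside 11.9% of all genes. The *Pdgfra-Cre:LmnaF/F* libraries lay above all WT libraries for 2 of the 30 and below for 4, beside 4.06% and 3.97% of all genes. In this list 5 were called with DESeq2, 9 with DESeq2 and 1 RUVr factor, and 10 with no filter. The cytokine gene *Il6* was at 0, 0, 0 and 0.518 CPM in WT and at 5.07, 14.8, 16.7 and 2.17 CPM in *Pdgfra-Cre:LmnaF/F* (adjusted p = 0.0709). *Igfbp3*, which encodes a binding protein of insulin-like growth factors, had 2.64 (adjusted p = 0.0969), and the chemokine gene *Ccl2* had 2.11 (adjusted p = 0.135). *Igfbp3* was at 169 to 471 CPM in WT and at 532, 299, 3629 and 2909 CPM in *Pdgfra-Cre:LmnaF/F* replicates 1 to 4. *Ccl2* was at 10.1 to 32.2 CPM in WT and at 212, 148, 62.9 and 15.6 CPM in *Pdgfra-Cre:LmnaF/F*. Both genes overlapped between the genotypes.

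**Figure D5:**
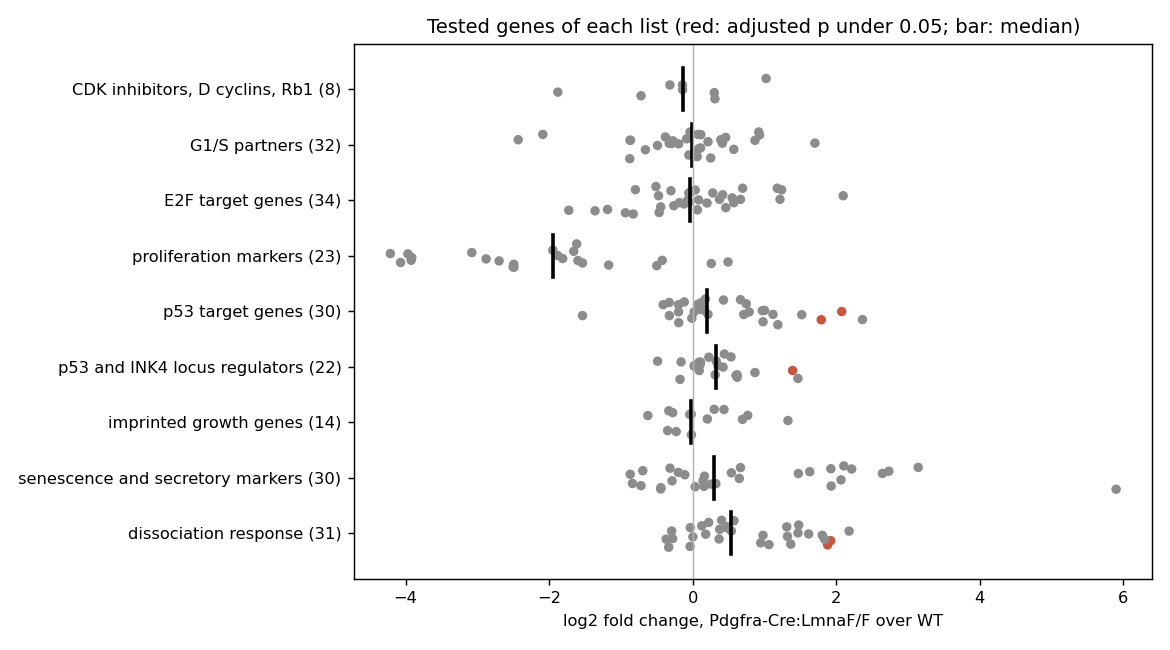
Log2 fold change of *Pdgfra-Cre:LmnaF/F* over WT for each tested gene (points, red where the adjusted p is under 0.05) of the CDK inhibitors, D cyclins and Rb1 and of 8 related lists, with the number tested in parentheses and a bar at the median. The bars lie between -0.14 and 0.54 except for the proliferation markers (-1.95), and the 5 red points are Sertad1, Btg2, Id1, Ier3 and Nr4a1.

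Markers of other cell types varied between libraries, and their part in the values above was not tested. Endothelial markers summed to 620 to 894 CPM in WT and 494 to 764 CPM in *Pdgfra-Cre:LmnaF/F*, immune markers to 46.9 to 177 and 51.6 to 453 CPM, and mural markers to 230 to 392 and 203 to 386 CPM. Schwann cell markers summed to 26.5 to 50.5 and 33.2 to 57.4 CPM and mesothelial markers to 10.9 to 30.2 and 4.48 to 13.1 CPM. None of the genes in the 7 marker lists was called by edgeR, beside 0.407% of all genes, and 4 had an unadjusted p under 0.05, beside 11.9%. Tested were 8 fibroblast, 8 endothelial, 8 cardiomyocyte, 6 immune, 6 mural, 3 Schwann cell and 4 mesothelial markers. The defining marker *Pdgfra* was at 1275 to 2108 CPM in WT and 1807 to 2761 CPM in *Pdgfra-Cre:LmnaF/F*, *Pecam1* at 49.8 to 68.2 and 17.5 to 53.1 CPM, *Tnnt2* at 10.2 to 62.9 and 21.3 to 429 CPM, and *Rgs5* at 59.1 to 168 and 64.65 to 204 CPM. *Ptprc* and *Msln* were both at 0 in *Pdgfra-Cre:LmnaF/F* replicate 2.

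Across the 8 libraries, the expression pattern of *Cdkn1c* was most like those of *Phf14*, *Haus6* and *Gsto1*, with root mean square differences of 0.203, 0.215 and 0.228 between mean-centred log2 CPM values, over 13035 other genes compared. *Ccnd1* was closest to *Cdc20*, *Vkorc1* and *Adgrb2* (0.587, 0.743 and 0.747), and *Cdkn1b* to *Kif1b*, *Phf8* and *Qk* (0.0653, 0.0702 and 0.0910). The libraries differ in depth and share their genotype, so these are descriptions over 8 points.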

How the data were processed

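The 8 libraries hold RNA of sorted cardiac fibroblasts, 4 of WT and 4 of *Pdgfra-Cre:LmnaF/F* mice, with 1 mouse each. The authors depleted ribosomal RNA, made strand-specific libraries for paired-end sequencing, used HISAT2 for alignment to mm10 and featureCounts for counting on GENCODE genes, in versions not given in the sources used here. The deposited values are whole-number counts of each gene symbol, not scaled for library size and without the RUV normalization used in their tests. The submitters' processing notes name FastQC and DESeq2. The lowest total over the 8 libraries was 4 counts, so genes below it had been removed, and 24 symbols read as dates and were kept as listed.

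The genotype comparison used edgeR 4.0.16 in R 4.3.3 (TMM, filterByExpr, glmQLFit, glmQLFTest, genotype as the only term), with limma 3.58.1, DESeq2 1.42.0 and Python 3.11.15 for other steps, and a threshold of 0.05 after Benjamini-Hochberg adjustment. The script was checked on simulated counts. Totals of 2080555 to 12502949 counts set the precision, and intervals cover 95%. Exon lengths and positions came from GENCODE M21. Other settings tried were upper-quartile and RLE factors, limma-voom (quality weights), DESeq2, no filter, at least 10 counts in every library, 1 RUVr factor with edgeR or DESeq2, a replicate block, exact permutation tests, other lengths, and leaving out each library. Leaving out 2 libraries together was added after seeing the data. Named genes are the 10 genes, *Lmna*, the 3 genes of lowest p in each list, the defining markers (1 of which is not reported here) and the 3 most similar patterns for 3 of the 10 genes, and *Cdk4* and *Cdk6* were added outside this rule. The genes and lists were chosen with earlier results of these data known.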

Additional observations from a re-analysis of the deposited data

Results flagged for a closer look

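In 7 of the 49 groups of 4 libraries examined, the highest library lay farther from the others than Dixon's 95% critical value allows for the gap over the range, and chance flags about 1 in 20 groups. Of the regulators, *Ccnd1* was at 188 CPM in WT replicate 2 against 12.5 to 17.1 CPM in the other WT libraries, and *Cdkn2c* was at 51.3 CPM in the same library against 26.5 to 28.8 CPM. *Cdkn2a* was at 1.0 CPM in *Pdgfra-Cre:LmnaF/F* replicate 4 and at 0 in the others of its group. In that library the summed G1/S partners reached 1316 CPM against 1084 to 1114 CPM, the cardiomyocyte markers 5827 CPM against 329 to 913 CPM, and the immune markers 453 CPM against 51.6 to 109 CPM. The Schwann cell markers reached 50.5 CPM in WT replicate 3 against 26.5 to 30.2 CPM in the other WT libraries.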

How the results depend on the processing

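Of 161 log2 fold changes with an adjusted p, over the 8 tested genes and *Lmna* and the other fits, 151 kept their sign and side of the threshold, 8 changed sign and 2 crossed the threshold. The genes called over all genes numbered 53, and 295 with DESeq2 (130 higher, 165 lower), 126 with limma-voom, 274 with no filter, 125 with 1 RUVr factor, 510 with DESeq2 and 1 RUVr factor, and 13 to 76 with 1 library left out (13 without WT replicate 4). Of the 10 regulators 1 was called with no filter (*Ccnd1*, lower) and 1 with DESeq2 and RUVr (*Cdkn1c*, higher), and 0 in every other fit, those with 1 library left out included. The sign changed for *Cdkn1a* with limma-voom (0.22), without WT replicate 2 (0.38) and without *Pdgfra-Cre:LmnaF/F* replicate 2 (0.12), where the range over the fits with 1 library left out was -0.40 to 0.38. It changed for *Ccnd1* without WT replicate 2 (0.056, range -2.22 to 0.056), for *Rb1* without *Pdgfra-Cre:LmnaF/F* replicate 1 (0.036, range -0.25 to 0.036) and for *Cdkn2c* without *Pdgfra-Cre:LmnaF/F* replicate 4 (-0.018, range -0.018 to 0.57). Without WT replicate 2 and *Pdgfra-Cre:LmnaF/F* replicate 4 together, *Cdkn1a* had 0.13 and *Ccnd1* 0.25, with 37 genes called in all. The cause was not tested. DESeq2 without RUVr gave no p and no adjusted p for *Ccnd1*, so the 0 called in that fit does not cover this gene. In an exact two-sided permutation test of log2 CPM, *Cdkn1c* had an unadjusted p of 0.0286, the smallest that 4 against 4 libraries can give, and the other 7 genes kept their sign with an unadjusted p over 0.05. Every gene whose groups do not overlap gets this smallest p, and that holds for 8.03% of all genes. It therefore restates the lack of overlap given above for *Cdkn1c*.

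Same-numbered libraries of the 2 genotypes did not deviate together (correlations of -0.0298 to 0.0396), so the numbers were not taken to pair the mice. With the replicate block, 36 genes and 0 of the 10 regulators were called, and the log2 fold change of *Ccnd1* was -0.94. With all 8 libraries *Cdkn2a* and *Cdkn2b* were below the filter, and 9 of the 10 regulators were tested in 5 of the fits with 1 library left out.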
